A study of Mus musculus with 15 samples.

Results

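The erythroid genes described here are 9 genes of red cell precursors, namely Slc4a1, Alas2, Aqp1, Trim10, Klf1, Car2, Epor, Hba-a1 and Ank1. They were chosen by symbol, as the current or an older gene name in the probe annotation. All 9 were measured, by 16 of the 16316 probes kept for testing, among 11075 named genes. Their RNA was compared between 3 neutrophil populations of BALB/c mice on Illumina mouse bead arrays, to see how much signal of red cell precursors each preparation held. Tumor-associated neutrophils (TAN, 4 arrays) came from flank tumors of AB12, a mesothelioma cell line of the same strain, 12 to 15 days after injection. Granulocytic myeloid-derived suppressor cells (G-MDSC, 4 arrays) came from the spleens of mice with AB12 flank tumors, 21 to 25 days after injection. Naïve neutrophils (NN, 7 arrays) came from the bone marrow of mice without a tumor. The labels name no engineered allele and no drug. Pools of 2 to 4 mice went onto each array, so that the spread between arrays is that of pools. According to the methods, NN were taken from flushed marrow by a density gradient, and spleen and tumor cells by CD11b beads and a sort on Ly6G. The labels name the beads and the sort for every sample. Tissue, tumor bearing and preparation therefore change together and cannot be told apart. For the cells sorted from spleens and tumors the methods give a neutrophil purity above 85%.

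Red cells form in the marrow, and in the mouse also in the spleen. A precursor first depends on erythropoietin, which it senses through the receptor encoded by Epor, and on transcription factors such as Klf1 and Gata1. It then fills with hemoglobin, whose alpha chain is encoded by Hba-a1 and whose heme needs Alas2, the first enzyme of heme synthesis in red cells. The membrane is built around the anion exchanger band 3, encoded by Slc4a1, and its anchor ankyrin, encoded by Ank1. The nucleus is lost late, and the young red cell still holds RNA for a time.

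RefSeq promoters (GRCm38.p6, 250 bases before to 50 bases after the start of the gene) were on hand for 6 of the 9 genes. The promoters of Hba-a1, Alas2, Klf1 and Epor are shown because these genes stand for hemoglobin, heme, a regulator and a receptor, and because all 4 were lower together in TAN and G-MDSC. Capitals mark AGATAA or TGATAA, the letters that GATA factors prefer, and CCNCNCCC, the letters that Klf1 and its relatives prefer, searched on both strands, with overlapping matches run together. Hba-a1 lies on the plus strand at chr11:32283422-32283721, Alas2 on the plus strand at chrX:150547167-150547466, Klf1 on the plus strand at chr8:84901732-84902031 and Epor on the minus strand at chr9:21963527-21963826.
Hba-a1: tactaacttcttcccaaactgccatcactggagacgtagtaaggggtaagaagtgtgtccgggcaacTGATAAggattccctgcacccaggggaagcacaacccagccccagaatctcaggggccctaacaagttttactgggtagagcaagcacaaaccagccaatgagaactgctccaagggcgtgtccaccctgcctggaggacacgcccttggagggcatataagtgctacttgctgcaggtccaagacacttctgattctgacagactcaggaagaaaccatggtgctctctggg
Alas2: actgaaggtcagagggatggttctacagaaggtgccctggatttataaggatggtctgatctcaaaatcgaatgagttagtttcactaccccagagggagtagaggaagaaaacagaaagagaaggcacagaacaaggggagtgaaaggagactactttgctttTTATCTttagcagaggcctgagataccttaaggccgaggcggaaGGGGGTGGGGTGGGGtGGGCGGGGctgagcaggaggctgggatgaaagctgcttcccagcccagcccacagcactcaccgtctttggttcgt
Klf1: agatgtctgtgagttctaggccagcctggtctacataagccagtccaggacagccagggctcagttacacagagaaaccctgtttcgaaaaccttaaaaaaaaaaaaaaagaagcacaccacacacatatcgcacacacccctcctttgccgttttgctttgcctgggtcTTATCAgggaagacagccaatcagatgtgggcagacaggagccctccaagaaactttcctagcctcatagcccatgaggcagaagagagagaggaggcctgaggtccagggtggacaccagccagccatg
Epor: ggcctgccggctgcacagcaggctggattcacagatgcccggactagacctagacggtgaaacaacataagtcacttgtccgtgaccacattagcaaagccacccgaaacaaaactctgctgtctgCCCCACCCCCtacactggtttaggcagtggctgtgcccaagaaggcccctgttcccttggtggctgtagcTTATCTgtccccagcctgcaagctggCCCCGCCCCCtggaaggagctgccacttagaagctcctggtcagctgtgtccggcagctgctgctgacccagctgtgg
AGATAA or TGATAA was found in 5 of the 6 promoters, Trim10 being the fifth and Aqp1 the one without, and in 18.6% of the 32851 promoters of the table. CCNCNCCC was found in 3 of the 6 (Aqp1, Epor and Alas2) and in 49.5% of all. The shorter CACCC, also searched but not marked on its own, was found in all 6 and in 57.5% of all. These matches are a description of the letters and were not tested as binding sites.

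Values are given as log2 signal after background correction and quantile normalization. The threshold for background was, on each array, the 95th percentile of 9375 probes absent from the authors' value table, and it lay between 6.45 and 6.55 in the 15 arrays. On this measure 12559 to 13478 of 25697 probes were above background in TAN, 13337 to 13373 in G-MDSC and 13559 to 14228 in NN. The arrays had a pair of background levels. The median raw signal of those 9375 probes was 84.2 to 94.3 in TAN and 76.2 to 91.9 in NN 1 to NN 5, against 106 to 114 in G-MDSC and 105 to 110 in NN 6 and NN 7. A neutrophil list of 11 measured genes, among them S100a8 and S100a9, averaged 11.62 to 12.47 in TAN, 13.87 to 14.13 in G-MDSC and 14.46 to 14.61 in NN. It also holds granule genes such as Mmp8, Mmp9, Camp and Ltf, which the paper reports as lower in TAN. Its genes differed by -7.93 to -0.13 in log2 signal between TAN and NN, so that its mean does not measure neutrophil content alone. Ly6g, the gene of the sort marker, had no named probe among those kept.

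All 9 erythroid genes were lower in TAN than in NN, and all 9 were lower in G-MDSC than in NN. Between TAN and G-MDSC 4 were lower in TAN, 2 were higher and 3 were not called. A gene is called here where its adjusted p in limma, with Benjamini-Hochberg adjustment over all kept probes, lay under 0.05. Of all 11075 genes, 26.2% were called lower and 36.8% higher in TAN than in NN. In G-MDSC 19.7% were called lower and 18.3% higher than in NN. Between TAN and G-MDSC 22.6% were called lower and 36.4% higher in TAN. No array of TAN or of G-MDSC reached the lowest NN array for any of the 9, while such a gap with NN on top held for 19.2% of all genes in TAN and 17.1% in G-MDSC. The median log2 difference of the 9 genes was -4.49 in TAN and -4.12 in G-MDSC, relative to NN, while the median over all genes was 0.12 in TAN and -0.01 in G-MDSC. Both comparisons share the NN arrays. In these bulk samples, fewer cells of a type and less RNA per cell cannot be told apart.

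**Figure D1:**
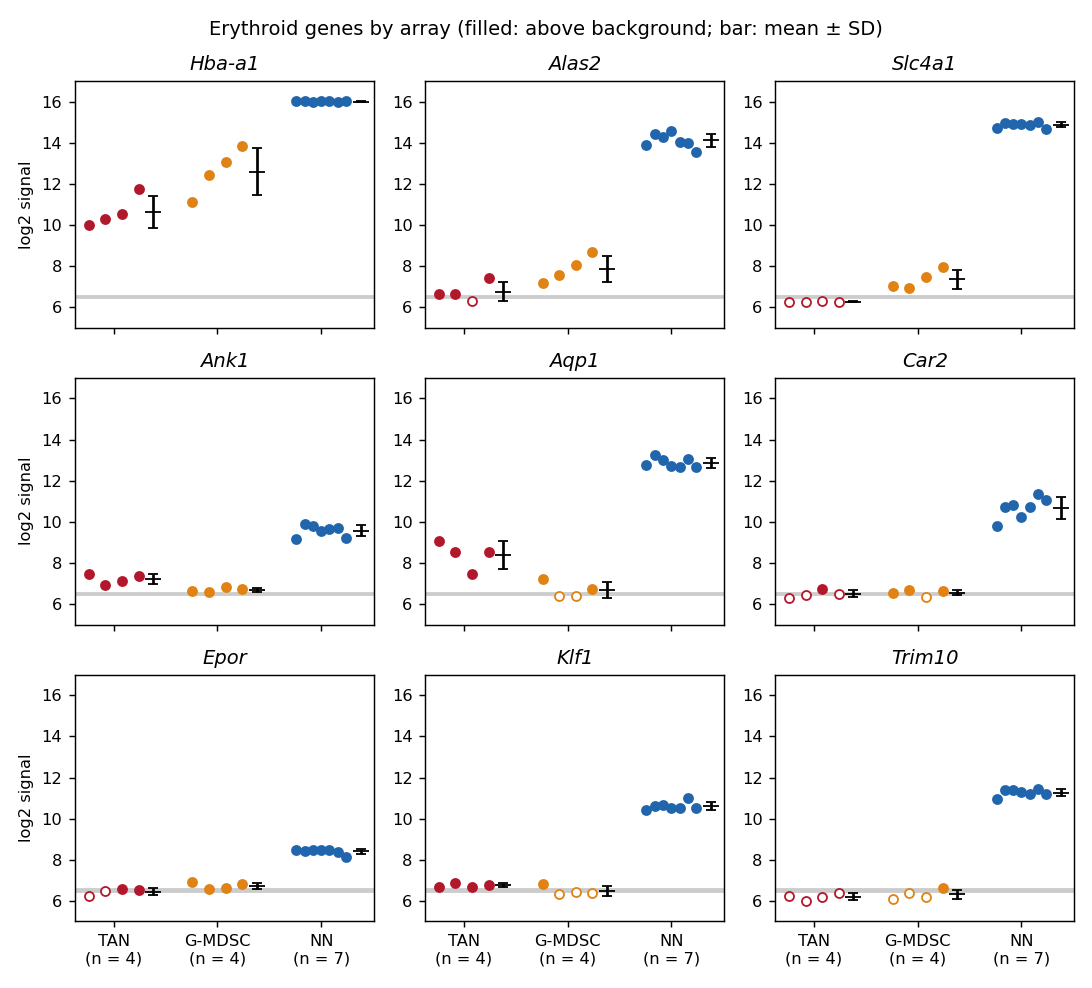
Each panel gives the log2 signal of 1 gene, with a point for each array of TAN, G-MDSC and NN. Filled points are above background, open points are not, the grey band spans the background thresholds of the arrays and the black bars give mean ± SD. All 7 NN arrays lie above every TAN and G-MDSC array in all 9 panels.

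Hba-a1, the hemoglobin alpha chain, kept signal above background on every array of all 3 groups. Its log2 signal was 9.98, 10.31, 10.51 and 11.73 in TAN 1 to 4, 11.09, 12.42, 13.04 and 13.83 in G-MDSC 1 to G-MDSC 4, and 15.98 to 16.01 (median 16.01) in NN. In NN its probe ranked first or second of the 25697 probes on every array, at the top of the normalized scale, so that its true fold against NN may be larger than measured. The log2 difference was -5.37 in TAN (41.4-fold lower, standard error 0.39, adjusted p = 7.1e-09) and -3.41 in G-MDSC (10.6-fold lower, standard error 0.39, adjusted p = 3.4e-06). Hba-a1 and Hba-a2 encode near-identical chains, and Hba-a2 had no named probe among those kept, so that this probe may read both.

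Alas2 had a log2 signal of 6.66, 6.61, 6.32 and 7.43 in the TAN arrays, 7.18, 7.54, 8.06 and 8.67 in the G-MDSC arrays, and 13.56 to 14.56 (median 14.04) in NN. TAN 3 was below background and every other array above it. The log2 difference was -7.35 in TAN (163-fold lower, adjusted p = 2.2e-12) and -6.25 in G-MDSC (76.0-fold lower, adjusted p = 5.2e-11), with a standard error of 0.27 for each. TAN 4 and G-MDSC 4, the highest arrays of their groups for Hba-a1, were also the highest for Alas2.

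Slc4a1, band 3, had the largest measured difference of the 9 genes from NN in both groups, while that of Hba-a1 is limited by the top of the scale. Its log2 signal was 6.26, 6.26, 6.28 and 6.25 in TAN, 7.03, 6.94, 7.45 and 7.97 in G-MDSC, and 14.68 to 14.99 (median 14.91) in NN. No TAN array was above background, so that Slc4a1 was at least 323-fold lower in TAN than in NN (adjusted p = 6.6e-16). This bound sets the NN mean against the lowest signal above background on each TAN array. All 4 G-MDSC arrays were above background, and Slc4a1 was 183-fold lower there than in NN (log2 difference -7.51, standard error 0.15, adjusted p = 2.6e-14).

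Ank1, the membrane anchor, had a log2 signal of 7.47, 6.92, 7.14 and 7.37 in TAN, 6.65, 6.56, 6.81 and 6.71 in G-MDSC, and 9.16 to 9.88 (median 9.66) in NN. It was 5.07-fold lower in TAN (adjusted p = 1.3e-09) and 7.37-fold lower in G-MDSC (adjusted p = 3.7e-10). Ank1 had 4 kept probes, of which 3 were called lower in both groups. The fourth was above background on 1 NN array and on no other, and was not called (log2 difference -0.04 in TAN, adjusted p = 0.764, and -0.20 in G-MDSC, adjusted p = 0.159).

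A pair of the genes also works outside red cells. Aqp1, a water channel of red cells and of capillary endothelium, had a log2 signal of 9.08, 8.51, 7.44 and 8.51 in TAN, 7.22, 6.41, 6.41 and 6.71 in G-MDSC, and 12.65 to 13.24 (median 12.75) in NN. It was 22.4-fold lower in TAN (adjusted p = 2.4e-10) and 72.8-fold lower in G-MDSC (adjusted p = 2.3e-11), where it was above background on 2 of the 4 arrays. Its other 2 probes were also called lower, by log2 differences of -4.72 and -3.93 in TAN and -5.47 and -4.50 in G-MDSC. Car2, a carbonic anhydrase of red cells and osteoclasts, had 6.31, 6.45, 6.71 and 6.50 in TAN, 6.55, 6.66, 6.36 and 6.65 in G-MDSC, and 9.78 to 11.36 (median 10.74) in NN. It was above background on 1 TAN array and 3 G-MDSC arrays, and was called lower in TAN (log2 difference -4.18, adjusted p = 1.9e-10) and in G-MDSC (log2 difference -4.11, adjusted p = 6.7e-10). Where most arrays of a group lay below background, as for Car2 in TAN and for Klf1 and Trim10 in G-MDSC, only the log2 difference is given, not a fold. A dimmer Car2 probe, above background on 5 of the 7 NN arrays and on no other array, was called lower in both groups too.

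Markers of those other cells were measured as well. Of 5 endothelial genes measured, 4 were called lower and none higher in TAN than in NN, against 26.2% and 36.8% of all genes. Only 1 to 2 of the 5 were above background on each TAN array. Relative to G-MDSC, 1 of the 5 was lower in TAN, 0 were higher and 4 were not called. Of all genes 22.6% were lower and 36.4% higher in that comparison. Ctsk, the bone matrix protease of osteoclasts, and Acp5, their acid phosphatase, were higher in TAN than in NN, by log2 differences of 4.78 and 1.07, and Ctsk is made by activated macrophages as well. Car2 itself was above background on only 1 of the 4 TAN arrays and was not called between TAN and G-MDSC (log2 difference -0.06, adjusted p = 0.838). The part of these cells in the Aqp1 and Car2 signals of TAN was not tested.

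The receptor gene Epor and the regulators Klf1 and Trim10 were at or near background in TAN and G-MDSC. Epor had a log2 signal of 6.22, 6.50, 6.58 and 6.51 in TAN, 6.91, 6.60, 6.62 and 6.80 in G-MDSC, and 8.15 to 8.49 (median 8.48) in NN. With log2 differences of -1.96 in TAN (adjusted p = 1.1e-10) and -1.68 in G-MDSC (adjusted p = 1.8e-09) it had the smallest measured difference of the 9 genes. Its NN mean of 8.41 was also the lowest of the 9, which limits the drop that can be measured above background. Klf1 had 6.66, 6.89, 6.69 and 6.77 in TAN, 6.82, 6.32, 6.43 and 6.36 in G-MDSC, and 10.42 to 11.00 (median 10.53) in NN. Klf1 was above background on all 4 TAN arrays but only on G-MDSC 1 in G-MDSC, and was 14.5-fold lower in TAN (adjusted p = 3.7e-13) and called lower in G-MDSC (log2 difference -4.12, adjusted p = 6.6e-13).

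Trim10, a protein with a RING finger that mouse red cell precursors need for their final maturation, had 6.25, 5.98, 6.19 and 6.40 in TAN, 6.10, 6.37, 6.17 and 6.60 in G-MDSC, and 10.94 to 11.44 (median 11.28) in NN. It was below background on all TAN arrays and at least 26.8-fold lower there than in NN (adjusted p = 2.2e-14). Only G-MDSC 4 was above background in G-MDSC, where Trim10 was called lower as well (log2 difference -4.96, adjusted p = 1.6e-13). A second Trim10 probe, with an NN mean of 9.09, was below background on every TAN and G-MDSC array and was called lower in both.

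**Figure D2:**
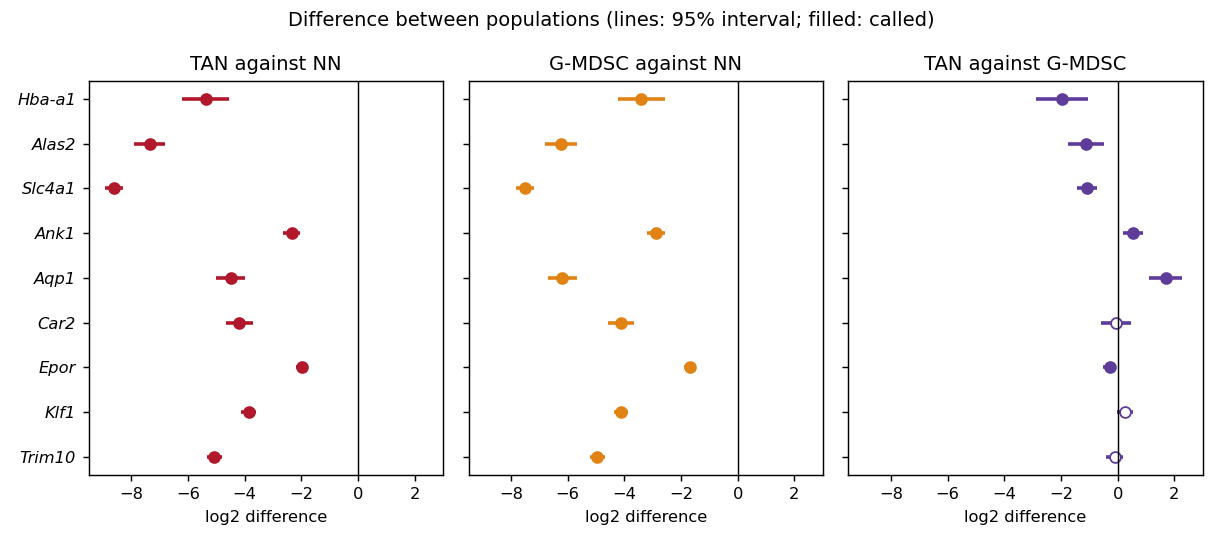
Log2 differences of the 9 genes (x axis) in TAN against NN, G-MDSC against NN and TAN against G-MDSC, with 95% intervals from limma; filled points were called. In both left panels every interval lies below 0, while in the right panel the points lie on both sides of 0, between -1.97 for Hba-a1 and 1.70 for Aqp1.

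Between TAN and G-MDSC the 9 genes did not share a direction, and calls were common among all genes as well. Of all genes 22.6% were called lower and 36.4% higher in TAN than in G-MDSC, against 4 and 2 of the 9. Hba-a1 (log2 difference -1.97, standard error 0.44, adjusted p = 0.00125), Alas2 (-1.11, standard error 0.30, adjusted p = 0.00504) and Slc4a1 (-1.08, standard error 0.17, adjusted p = 6.8e-05) were lower in TAN. The fit shares a spread over all groups, and for Hba-a1 the SD was 0.01 in NN, at the top of the scale, against 0.76 in TAN and 1.16 in G-MDSC. Its standard error is therefore smaller than the TAN and G-MDSC arrays alone would give. In a fit of TAN and G-MDSC alone, Hba-a1, Alas2 and Slc4a1 were still called lower in TAN. For Slc4a1 the groups did not overlap, whereas for Hba-a1 and Alas2 the highest TAN array lay above the lowest G-MDSC array. Aqp1 was higher in TAN (1.70, standard error 0.27, adjusted p = 8.3e-05). All 3 of its probes were called so, but the others gave smaller differences, of 0.75 and 0.57. Ank1 was higher in TAN as well (0.54, standard error 0.16, adjusted p = 0.0104), by 2 of its 4 probes, while the others were not called (0.25, adjusted p = 0.195, and 0.16, adjusted p = 0.264).

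Epor was called lower in TAN by a small margin (log2 difference -0.28, adjusted p = 0.0391), near background, and this call was lost in 9 of 20 other settings, among them without TAN 1, TAN 2, TAN 4, G-MDSC 1 or G-MDSC 4 (adjusted p = 0.0509 to 0.133). The 3 genes not called had intervals of the log2 difference from -0.39 to 0.18 for Trim10, from -0.02 to 0.55 for Klf1 and from -0.59 to 0.47 for Car2. Without G-MDSC 1 the Klf1 difference was 0.38 and called higher (adjusted p = 0.0183). No background level held both TAN and G-MDSC arrays. With the level as a block, which the NN arrays of both levels allow, the differences were -1.97 for Hba-a1 (adjusted p = 0.0443), -1.58 for Alas2, -1.12 for Slc4a1 and 1.68 for Aqp1, all called, and Ank1 lost its call (0.37, adjusted p = 0.296).

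Within each background level all 9 genes stayed called lower than in NN. For TAN against NN 1 to NN 5, they were between -8.61 for Slc4a1 and -2.02 for Epor. For G-MDSC against NN 6 and NN 7, they were between -7.49 for Slc4a1 and -1.53 for Epor.

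Of the 9 genes, Hba-a1 varied most among the 4 G-MDSC arrays, with a range of 2.74 in log2 signal. G-MDSC 4 was the highest and G-MDSC 1 the lowest of the 4 for Hba-a1, Alas2 and the beta globin genes Hbb-b2 and Hbb-bt, and G-MDSC 4 was also the highest for Slc4a1. Hbb-b2 had 7.21, 7.99, 8.27 and 8.75 in G-MDSC 1 to G-MDSC 4. The globin probes read related genes and are not independent of each other. G-MDSC 1 was at the same time the array with the most lymphocyte signal, with a B cell list mean of 9.52 against 7.00 to 7.18 in the other G-MDSC, and a T and NK cell list mean of 10.45 against 7.81 to 7.96. It was also the highest G-MDSC array for the eosinophil list (7.84 against 6.77 to 7.02) and the mast cell and basophil list (8.95 against 8.08 to 8.30). Of 18 other erythroid genes above background on every G-MDSC array, 12 were highest in G-MDSC 1. Klf1, Epor and Aqp1 were highest in G-MDSC 1 among the G-MDSC arrays. Whether lymphocytes or other cells had a part in these values was not tested.

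In TAN the range of Hba-a1 was 1.75, with TAN 4 on top. TAN 4 was the highest TAN array for Alas2 and Hbb-b2 too, and TAN 1 the highest for Hbb-bt, Aqp1 and Ank1. The 7 NN arrays lay close together. The standard deviation over NN was between 0.01 for Hba-a1, at the top of the scale, and 0.52 for Car2.

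**Figure D3:**
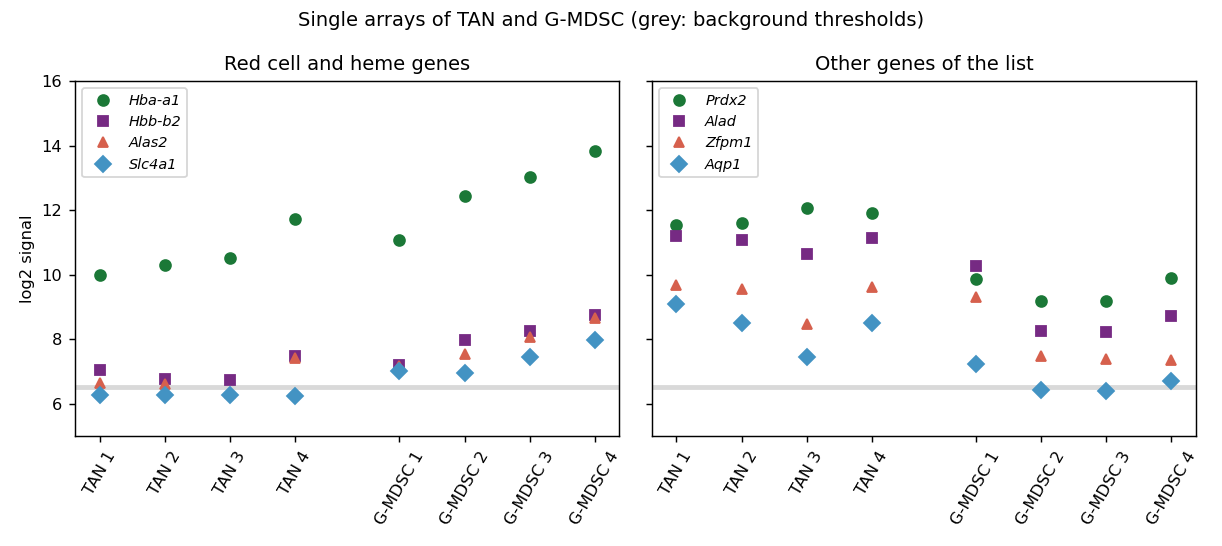
Log2 signal of single genes (y axis) on each TAN and G-MDSC array, with grey bands for the background thresholds. On the left, Hba-a1, Hbb-b2, Alas2 and Slc4a1 are highest in G-MDSC 4; on the right, Prdx2, Alad, Zfpm1 and Aqp1 are higher in TAN on average, and Alad and Zfpm1 in G-MDSC 1 stand above the other G-MDSC.

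Other genes of red cell formation, listed by role, moved largely with the 9. Of 53 listed, 35 were measured. In TAN 30 were lower than in NN and none was higher. In G-MDSC 30 were lower and 1 was higher. Their median log2 difference was -1.85 in TAN and -2.04 in G-MDSC. Of the 35, 33 were above background on every NN array, and 18 on every array in TAN and in G-MDSC, while 13 were above it on no TAN array and 10 on no G-MDSC array.

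Both beta globin genes measured were lower. Hbb-b2 had 7.05, 6.76, 6.75 and 7.49 in TAN, against 12.12 to 12.71 in NN, and was 45.0-fold lower (adjusted p = 1.1e-11), while in G-MDSC it was 21.8-fold lower (adjusted p = 3.9e-10). Hbb-bt was 20.8-fold lower in TAN (adjusted p = 4.4e-14) and 20.3-fold lower in G-MDSC (adjusted p = 2.1e-13). The beta globin genes are so alike that their probes may read more than 1 of them.

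All 12 genes of the red cell membrane were called lower in both groups, against 26.2% of all genes in TAN and 19.7% in G-MDSC. Some of these differences were small and near background. Sptb differed by -0.52 in TAN and -0.57 in G-MDSC (log2, NN mean 6.85), and Rhd by -0.57 and -0.43 (NN mean 6.64). Cldn13 differed by -0.44 in TAN, where its arrays overlapped with NN. Kel, a blood group antigen, and Dmtn, which encodes dematin of the membrane skeleton, were below background on all TAN and all G-MDSC arrays. Kel was at least 11.2-fold lower in TAN and at least 11.4-fold lower in G-MDSC, and Dmtn at least 10.8-fold lower in TAN and at least 11.0-fold lower in G-MDSC (adjusted p between 4.8e-13 and 3.2e-12). The list was above background for 1 to 3 of 12 genes in each TAN array, 2 to 3 in each G-MDSC array, and 11 to 12 in each NN array.

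**Figure D4:**
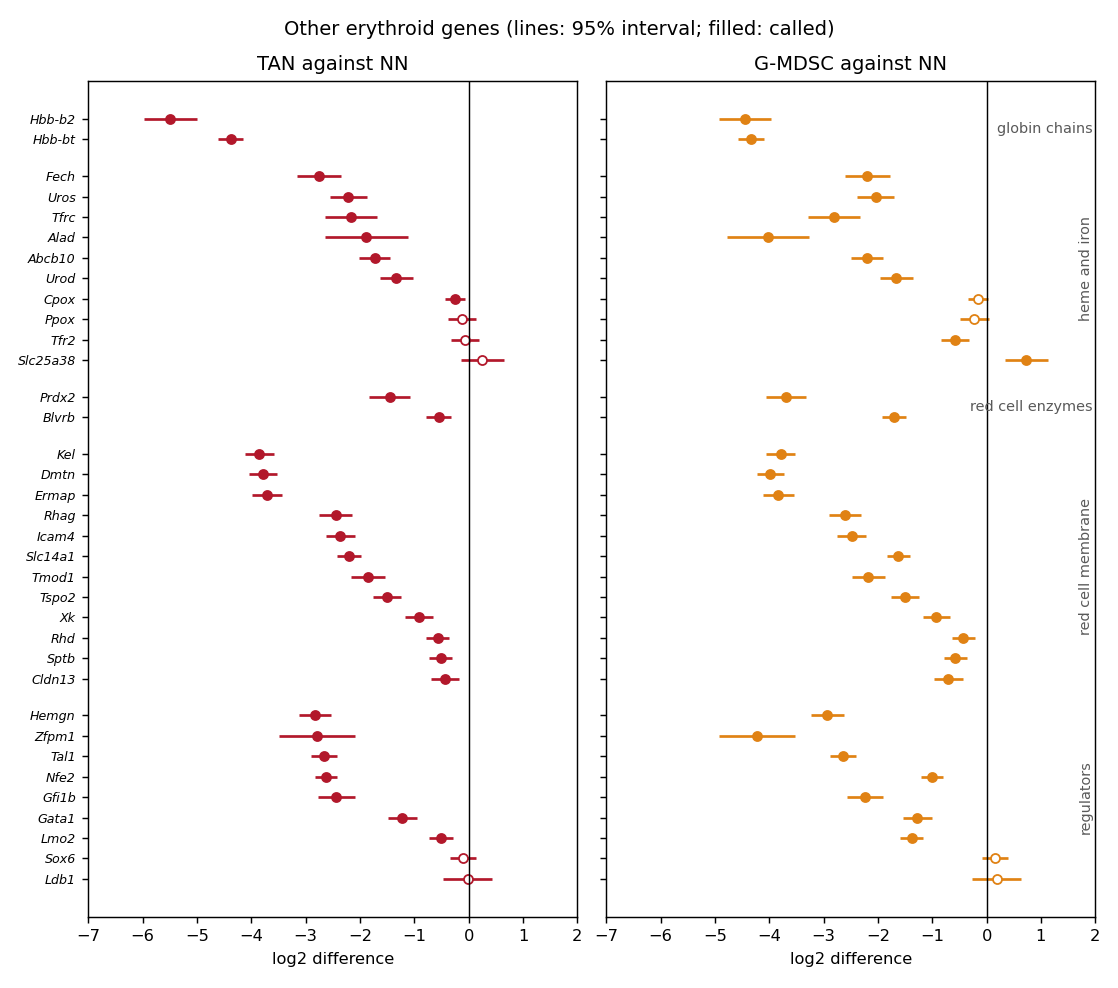
Log2 difference (x axis) of the 35 other erythroid genes, grouped by role, in TAN against NN and in G-MDSC against NN, with 95% intervals; filled points were called. Nearly all points lie left of 0, and Slc25a38 in G-MDSC is the 1 called point to its right.

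Genes of heme synthesis and iron uptake were less uniform. Of 10 measured, 7 were lower in TAN and 7 in G-MDSC. Alad, the second enzyme of heme synthesis, had 11.18, 11.08, 10.64 and 11.13 in TAN, 10.26, 8.25, 8.23 and 8.71 in G-MDSC, and 12.20 to 13.64 in NN. It was 3.68-fold lower in TAN (adjusted p = 0.00027) and 16.3-fold lower in G-MDSC (adjusted p = 2.2e-07). Slc25a38, a mitochondrial glycine carrier, was 1.66-fold higher in G-MDSC than in NN (adjusted p = 0.00532), and this call was lost with the background level as a block.

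Among 9 regulators measured, 7 were lower in each group and Ldb1 and Sox6 were not called. Zfpm1, the GATA partner FOG1, had 9.68, 9.56, 8.48 and 9.61 in TAN, 9.31, 7.49, 7.38 and 7.36 in G-MDSC, and 11.66 to 12.45 in NN. It was 6.90-fold lower in TAN (adjusted p = 2.1e-06) and 18.8-fold lower in G-MDSC (adjusted p = 4.7e-08). Lmo2 and Nfe2, which myeloid cells also use, stayed above background on every array, and both were called lower in TAN (log2 differences -0.51 and -2.63) and in G-MDSC.

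Set against G-MDSC, TAN had 8 of the 35 genes higher and 4 lower. Of all genes 36.4% were called higher and 22.6% lower in this comparison, so that calls were no more common among the 35 than among all genes. Prdx2, a peroxide-reducing enzyme abundant in red cells but made in many cell types, was 4.72-fold higher in TAN than in G-MDSC (adjusted p = 2.2e-07), and Alad was 4.42-fold higher (adjusted p = 0.00034). Blvrb, Zfpm1, Tfrc, Lmo2, Abcb10 and Tfr2 were the other 6. Hbb-b2, Fech, Nfe2 and Slc14a1 were lower in TAN, Hbb-b2 by 2.06-fold (adjusted p = 0.0026), though its TAN and G-MDSC arrays overlapped. The other beta globin gene measured, Hbb-bt, was not called (log2 difference -0.04, adjusted p = 0.802). Without TAN 3 and G-MDSC 1, Zfpm1 was higher in TAN by a log2 difference of 2.21 in place of 1.45, and Alad by 2.73 in place of 2.14.

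The genes outside every list whose profile over the 15 arrays was most like the mean profile of the 9 were Slc38a5, Elane, Ctsg, Mpo, Mpig6b and Tmcc2. Likeness was the root mean square difference of centred log2 profiles, which was 0.27 for Slc38a5, 0.43 for Elane, 0.50 for Ctsg, 0.52 for Mpo, 0.61 for Mpig6b and 0.63 for Tmcc2. Among the 9 it was between 0.19 for Trim10 and 1.72 for Slc4a1. Elane, Ctsg and Mpo encode granule proteins made by neutrophil precursors, and Mpig6b a receptor of megakaryocytes and platelets. For the RNA of neutrophil elastase, encoded by Elane, the paper reports no significant difference between the neutrophil populations. Here Elane was 28.6-fold lower in TAN than in NN (adjusted p = 9.5e-11) and 18.4-fold lower in G-MDSC (adjusted p = 1.4e-09). It was not called between TAN and G-MDSC (log2 difference -0.64, adjusted p = 0.0557). The reason for the disagreement with the paper was not tested. Mpo averaged 7.15 ± 0.20 in TAN (SD, n = 4), 7.94 ± 0.66 in G-MDSC (SD, n = 4) and 12.58 ± 0.47 in NN (SD, n = 7).

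Markers of some other marrow cells were lower together with the 9 genes, and those of others were not. Of 9 megakaryocyte and platelet genes, 8 were lower in TAN and 9 in G-MDSC. Pf4 was the exception in TAN, with a mean of 12.67 in TAN, 7.10 in G-MDSC and 12.68 in NN. Of 5 eosinophil genes 5 were lower in TAN and 4 in G-MDSC, and all 4 proliferation genes measured were lower in both groups.

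By array, the list mean of the 9 erythroid genes was 7.10 to 7.50 in TAN, 7.28 to 7.81 in G-MDSC and 11.80 to 12.21 in NN. The megakaryocyte and platelet list had 7.50 to 7.79 in TAN, 6.75 to 6.89 in G-MDSC and 10.80 to 12.07 in NN, and the eosinophil list 6.29 to 6.55 in TAN, 6.77 to 7.84 in G-MDSC and 10.09 to 10.70 in NN. B cell genes were lower in TAN for 4 of 6 and in G-MDSC for 2 of 6. T and NK cell genes were lower for 2 of 6 in TAN and 1 of 6 in G-MDSC, with 1 higher in each, and mast cell and basophil genes for 3 of 5 in TAN and 4 of 5 in G-MDSC, with 1 higher in each. Of 3 progenitor genes, 0 were lower in TAN and 1 in G-MDSC. Of all genes 26.2% were called lower and 36.8% higher in TAN, and 19.7% and 18.3% in G-MDSC, so that the T and NK cell counts lie near those shares. Of 6 macrophage genes 3 were higher in TAN than in NN and 1 in G-MDSC, also not far from those shares. TAN 3 stood apart here, with a macrophage list mean of 12.83 against 10.17 to 11.28 in the other TAN, and a proliferation list mean of 8.11 against 7.17 to 7.52. It was also the lowest TAN array for Zfpm1 and for the Aqp1 probe whose signals are given by array, though not for another Aqp1 probe. The part of these cell types and of TAN 3 in the erythroid signals was not tested.

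Probes of the same gene also disagreed more often in TAN. Of 1959 genes with several probes above background on every NN array, those with probes more than 4-fold apart in their difference from the NN mean made up 26.6%, 26.3%, 4.90% and 20.7% on the 4 TAN arrays and 0.613% to 1.53% on the G-MDSC arrays. The 3 Aqp1 probes gave the same direction in each comparison.

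**Figure D5:**
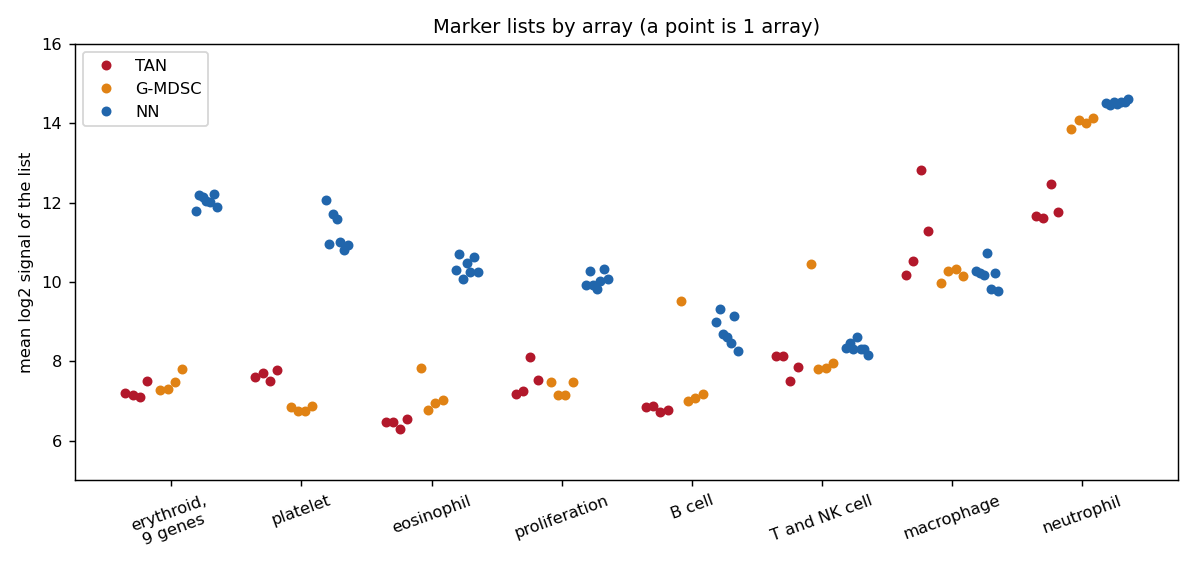
Mean log2 signal of marker lists (y axis), with a point for each array of TAN, G-MDSC and NN. The erythroid, platelet, eosinophil and proliferation lists are lower on every TAN and G-MDSC array than on any NN array. The neutrophil list, which includes granule genes, is lowest in TAN, at 11.62 to 12.47.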

How the data were processed

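Per the labels, RNA of Ly6G+ neutrophils was hybridized to Illumina mouse bead arrays. The deposited array files hold a raw intensity for each of 25697 probes, summarized by the authors with BeadStudio and neither background subtracted nor normalized, and without detection p-values or control probes. The authors' value table holds normalized intensities for 16322 probes and served to choose probes and as an alternative. The genome build was not given in the sources used here.

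Intensities were background corrected (normexp, offset 50), quantile normalized and taken to log2. The 16316 probes with a ratio of at least 1.2 between some pair of arrays were kept. Of these, 15321 had 1 gene symbol, 995 none and 0 several, from GEO's platform annotation with symbols updated through RefSeq. All 15 arrays entered a limma fit (limma 3.58.1, R 4.3.3) with a mean per group and no block, and p-values were adjusted by Benjamini-Hochberg. A gene was taken by its kept probe with the highest mean. Where no array of a group was above background, the fold is given as a bound (at least N-fold). The number of arrays limits the precision. The fit was tested on simulated data.

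The named genes were the 9 erythroid genes, the 6 other erythroid genes with the largest called difference from NN and any called higher, and the 6 genes most like the 9; other names were added after their values were seen. The genes and lists were chosen with earlier results of these data known. Alternatives were another background correction or offset, median scaling, the authors' table, other probe filters, variance models, the background level or the replicate number as a block, and leaving out arrays. Same-numbered arrays did not deviate together, so the numbers were not used as pairs. The labels number the arrays within a group and the methods call them independent pools, so p-values measure the spread between pools. That spread is shared over all groups in the fit, also where only some of the groups are compared.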

Additional observations from a re-analysis of the deposited data

Results flagged for a closer look

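Among 66 combinations of a gene and a group tested for an array that stands apart (the gap to the nearest other array over the group's range, against Dixon's critical value), 4 were picked out. Chance alone picks out about 1 in 20. Zfpm1 stood apart in 2 of the groups. It was 9.31 in G-MDSC 1, against 7.36 to 7.49 in the other G-MDSC, and 8.48 in TAN 3, against 9.56 to 9.68 in the other TAN. Epor was 8.15 in NN 7, against 8.37 to 8.49 in the other NN. Dmtn was 6.19 in G-MDSC 3, against 5.89 to 5.91 in the other G-MDSC, all of them below background.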

How the results depend on the processing

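All 9 erythroid genes stayed lower and called in TAN and in G-MDSC, relative to NN, in each of the 24 settings tried, with log2 differences between -9.45 and -1.74 in TAN and between -7.88 and -1.50 in G-MDSC. With a normexp offset of 16 in place of 50, the fold against NN was over 1.5 times larger for Slc4a1, Trim10 and Car2 in TAN and for Aqp1, Trim10, Klf1 and Car2 in G-MDSC. Between TAN and G-MDSC, 165 of 180 values kept their direction and call, 10 lost the call (Epor in 9, Ank1 in 1), 4 gained it (Klf1) and 1 reversed. With the background level as a block, the difference of Car2 was 0.69, of Hbb-bt 0.12, of Slc38a5 -0.18 and of Mpig6b -0.69, each opposite in sign to the value over all arrays and none called. Leaving out 1 array at a time gave -0.13 to 0.044 for Hbb-bt, above 0 without TAN 3 or G-MDSC 4, and -0.019 to 0.18 for Slc38a5, below 0 without G-MDSC 4, none called. With the same block, 2 of the 35 other erythroid genes were lower in TAN than in G-MDSC in place of 4, and the cause was not tested. With the replicate block, in a paired fit by the arrays' numbers, 3 of the 9 genes were lower in TAN than in G-MDSC in place of 4, and all 9 were lower than in NN in both groups. The correlations of same-numbered arrays were -0.31 to 0.27. Median scaling changed the share of lower among all called genes to 38.6% from 51.8% in G-MDSC against NN, and to 49.2% from 38.3% in TAN against G-MDSC, where the median of all genes was 0.02 in place of 0.13.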
